A study of Mus musculus with 18 samples.

Results

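*Cryab*, the gene for αB-crystallin, lies on mouse chromosome 9 among ordinary housekeeping and signalling genes. The 10 genes described here, *Bco2*, *Il18*, *Dixdc1*, *Dlat*, *Sdhd*, *Timm8b*, *Pih1d2*, *Alg9*, *Ppp2r1b* and *Sik2*, are its neighbours, taken by symbol from a count table of 40800 genes. They were listed because they sit beside the locus that was targeted to make the *Cryab*-R120G knock-in mouse, and because *Bco2* had been seen to be low in homozygous *Cryab*-R120G lenses. The members were thus chosen by position and by the measured level of *Bco2* in the homo and WT libraries of that line, and values of that comparison are given as a description without a test.

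RNA was sequenced from pools of whole lenses of C57BL/6J mice in 6 groups of 3 libraries, 18 in all. WT, het and homo lenses of the *Cryab*-R120G knock-in line were taken at 14 days of age, and those of the *Cryaa*-R49C knock-in line at 2 days. Het lenses carry 1 mutant allele of the targeted gene and homo lenses carry 2. *Cryaa*, the gene for αA-crystallin, lies on chromosome 17, so the *Cryaa* line serves here as a line in which the chromosome 9 locus was not targeted. Line, age and any batch between the lines change together and cannot be told apart. A replicate is a pool of lenses, and no label gives the number of embryonic stem cell clones behind a line or its flanking DNA. Groups were taken from the sample titles, because 6 *Cryab* libraries carry a genotype entry that belongs to the *Cryaa* line.

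α-Crystallins are small heat shock proteins that keep lens proteins soluble, and the R49C and R120G changes are linked to inherited human cataract. A knock-in made in embryonic stem cells alters the locus of the target, so genes near the target are the ones a reader would want to see measured. None of the 10 neighbours is a crystallin: *Bco2* cleaves carotenoids, *Il18* is a cytokine, *Dlat*, *Sdhd* and *Timm8b* serve the mitochondrion, *Alg9* builds sugar chains, and *Dixdc1*, *Ppp2r1b* and *Sik2* act in signalling.

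The sequences that the comparison turns on are the shared start region of *Bco2* and *Il18* and the targeted codon. On the GRCm38 assembly, *Bco2* spans chr9:50533087-50555181 on the minus strand and *Il18* spans chr9:50554827-50581840 on the plus strand. Their annotated 5′ ends overlap by 355 bases, and their start sites lie 196 kb from that of *Cryab*. The following 2 promoter windows of 300 bases are from RefSeq (GRCm38.p6), each with 250 bases before the start and 50 from it on. Capitals mark CCAAT, its reverse complement ATTGG, and the TATA box letters TATAAA read on either strand.
Bco2 promoter, chr9:50555089-50555388, minus strand: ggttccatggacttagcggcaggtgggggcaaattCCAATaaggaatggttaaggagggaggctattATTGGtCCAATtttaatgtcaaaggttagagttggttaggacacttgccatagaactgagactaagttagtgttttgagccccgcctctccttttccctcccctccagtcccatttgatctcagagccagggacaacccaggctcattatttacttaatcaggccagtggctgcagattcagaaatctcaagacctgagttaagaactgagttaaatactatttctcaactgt
Il18 promoter, chr9:50554450-50554749, plus strand: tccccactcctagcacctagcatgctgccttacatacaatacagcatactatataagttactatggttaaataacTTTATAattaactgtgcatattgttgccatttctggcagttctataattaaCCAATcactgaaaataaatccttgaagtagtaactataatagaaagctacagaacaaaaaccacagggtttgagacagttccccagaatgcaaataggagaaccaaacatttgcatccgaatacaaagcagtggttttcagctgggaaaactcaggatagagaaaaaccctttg

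The *Bco2* window shown holds 3 matches to CCAAT on both strands and none to TATAAA. A second *Bco2* entry of the table, at chr9:50553613-50553912 on the same strand, holds 1 match to TATAAA and none to CCAAT. The *Il18* window holds 1 match to each. Among all 32851 promoter windows of the table, 37.4% hold CCAAT and 13.6% hold TATAAA. All 10 genes had an entry in the table. The heat shock element core GAANNTTC was found in the window of *Dixdc1* alone among the 10 genes, and 7.86% of all windows hold it. These are letters found in a window and no evidence of binding.

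The targeted codon lies in exon 3 of 3 of *Cryab*, at chr9:50756325-50756327 on the plus strand. The reference sequence around it is shown because this codon was changed in the knock-in, with codon 120, for arginine, in capitals.
Cryab codon 120: cagggagttccacAGGaagtaccggatcc

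Distances are given between start sites. From *Cryab* towards lower coordinates follow *Dixdc1* (11.8 kb), *Dlat* (91.5 kb), *Pih1d2* (134 kb), *Timm8b* (147 kb), *Sdhd* (148 kb) and then *Bco2* and *Il18*. On the other side lie *Alg9* (23.7 kb), *Ppp2r1b* (94.0 kb) and *Sik2* (258 kb). *Ppp2r1b* and *Sik2* overlap by 1429 bases on opposite strands, and *Il18* overlaps *Tex12* by 4507 bases. Whether reads were counted by strand is not given in the sources used here. Without strand, reads from such overlaps cannot be told apart, although the authors counted only reads that fell to a single gene.

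Library totals lay between 14272174 and 29639719 counts. The sum of 14 lens fibre markers lay between 845537 and 889481 CPM (counts scaled to library size after TMM scaling, which sets the libraries on a common footing) in WT lenses at 14 days and between 184087 and 279445 CPM at 2 days, with *Lim2* at 0 counts in every library. *Cryab* itself was measured at 44212, 46210 and 32936 CPM in *Cryab*-WT, at 27788, 37059 and 42627 in het and at 30541, 32284 and 35831 in homo. The het and homo groups both overlapped WT (homo log2 fold change -0.32 ± 0.26 SE, adjusted p = 0.943 by edgeR's quasi-likelihood test). The counts cover both alleles alike, so they do not check the genotype.

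All 10 genes were detected in the normal lens, at very unequal levels. Levels between genes are compared in the deposited RPKM, which divides counts by the length of the gene and the size of the library. In *Cryab*-WT at 14 days the order began with *Timm8b*, a small chaperone of the mitochondrial intermembrane space, at 91.8 RPKM ± 9.24 (SD, n = 3). *Il18* followed at 6.83 ± 0.558 RPKM. *Sdhd*, a membrane anchor of succinate dehydrogenase, was at 2.33 ± 0.788 RPKM. *Bco2* was at 1.49 ± 0.437 RPKM, and the range of its libraries overlapped that of *Sdhd*.

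*Dlat*, the acetyltransferase subunit of pyruvate dehydrogenase, stood below *Bco2* at 0.844 ± 0.160 RPKM without overlap. *Alg9*, *Dixdc1* and *Pih1d2* lay between 0.308 and 0.341 RPKM on average and overlapped each other. *Sik2* at 0.161 ± 0.0508 RPKM and *Ppp2r1b* at 0.127 ± 0.0762 RPKM closed the order and overlapped as well. In the WT libraries at 2 days *Timm8b* again stood first at 124 ± 17.4 RPKM, and *Il18* (6.90 ± 1.52 RPKM) and *Sdhd* (5.59 ± 1.05 RPKM) overlapped. *Bco2* (1.19 ± 0.582 RPKM) there overlapped *Dlat* (1.79 ± 0.593 RPKM).

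**Figure D1:**
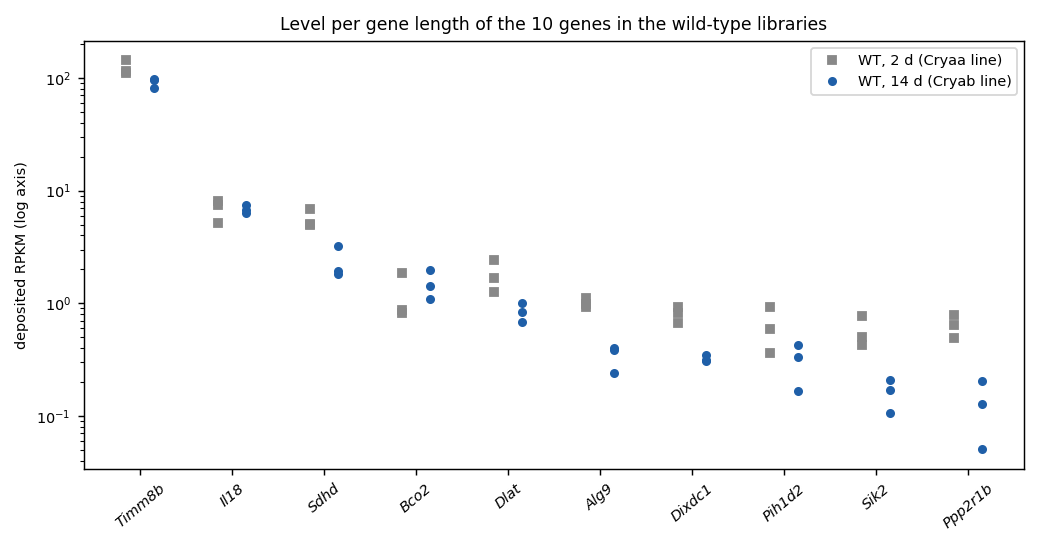
Deposited RPKM (log axis) of the 10 genes in the 3 WT libraries at 2 days (squares) and the 3 WT libraries at 14 days (circles), in the order of the mean at 14 days. *Timm8b* stands at 81.2 RPKM or above in all 6 libraries, and the other 9 genes lie at or below 8.04 RPKM, the highest value of *Il18*.

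*Bco2*, the mitochondrial dioxygenase that cleaves carotenoids, was the neighbour with the lowest share of its WT level in homozygous *Cryab*-R120G lenses. It was measured at 4.63, 7.61 and 6.23 CPM in the 3 *Cryab*-WT libraries, at 1.71, 3.33 and 3.57 CPM in the het libraries and at 0.655, 0.605 and 0.841 CPM in the homo libraries. No library of one genotype overlapped another. The homo mean was 11.4% of the WT mean, from 10 to 11 counts a library, and the het mean was 46.6%. The log2 fold change was -3.15 ± 0.47 (SE) for homo and -1.09 ± 0.41 for het, each against WT. Both are descriptions, since the homo and WT libraries served to pick the gene. In whole lens pools, less RNA per cell and fewer cells that make it cannot be told apart.

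*Il18*, the cytokine whose gene starts beside that of *Bco2*, lay in the same order. The CPM values were 9.14, 8.74 and 10.9 in *Cryab*-WT, 4.06, 7.11 and 6.66 in het and 3.6, 3.63 and 2.14 in homo. The 3 genotypes did not overlap, and the homo mean was 32.6% of WT. The log2 fold change of homo against WT was -1.61 ± 0.28, given as a description. Het against WT gave -0.68 ± 0.27, which did not pass edgeR's quasi-likelihood test after Benjamini-Hochberg adjustment over all genes (adjusted p = 1).

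The ratio of the counts of *Bco2* to those of *Il18* needs no scaling between libraries. It is given as a description, because *Bco2* was picked for its low homo values. For every 100 counts of *Il18*, those of *Bco2* numbered 50.6, 87.0 and 57.1 in WT, 42.2, 46.8 and 53.7 in het and 18.2, 16.7 and 39.3 in homo. The homo libraries lay below the others of the line by this ratio, with homo replicate 3 close to het replicate 1, and the het libraries overlapped WT.

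*Dixdc1*, a DIX domain protein of Wnt signalling and the member closest to *Cryab*, was ordered the other way. It was measured at 6.94, 5.80 and 6.23 CPM in WT, 7.75, 8.03 and 7.5 CPM in het and 9.57, 8.53 and 9.63 CPM in homo. The homo mean was 146% of WT, with a log2 fold change of 0.55 ± 0.21 as a description. Het against WT was 0.30 ± 0.22, not past the test (edgeR, adjusted p = 1). *Bco2*, *Il18* and *Dixdc1* were the 3 of 10 genes whose WT, het and homo libraries stood in 1 order without overlap. The share over all 13938 genes was 0.194%, and nothing is read from the count, because the order uses the homo and WT values that chose *Bco2*.

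**Figure D2:**
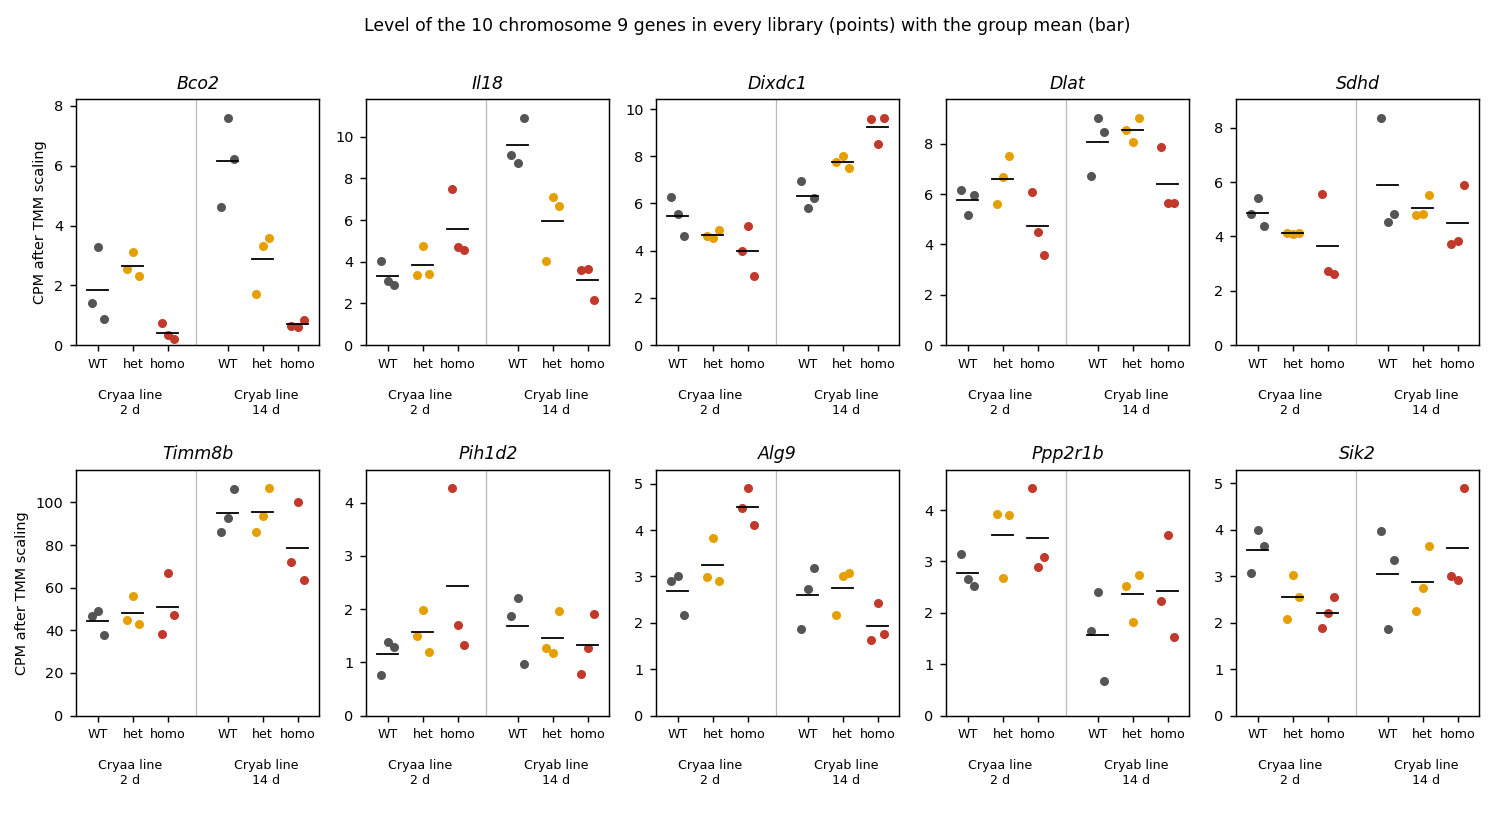
CPM after TMM scaling (y axes from 0) of the 10 genes in every library (points, 3 a group) with the group mean (bar), for WT, het and homo of the *Cryaa* line at 2 days and of the *Cryab* line at 14 days. In the *Cryab* line the points of *Bco2* and *Il18* step down from WT to homo and those of *Dixdc1* step up, while the WT and homo points of the other 7 genes overlap.

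The homo and WT libraries of the other 7 genes overlapped in the *Cryab* line, and 9.0% of all genes had groups without overlap there. Their log2 fold changes lay between -0.43 (*Alg9*, a mannosyltransferase of N-glycan assembly) and 0.63 (*Ppp2r1b*, a scaffold subunit of protein phosphatase 2A). Of the mitochondrial genes, *Dlat* was at -0.34 ± 0.23, *Sdhd* at -0.39 ± 0.30 and *Timm8b* at -0.27 ± 0.23. With library size alone *Dlat* (0.051) and *Timm8b* (0.092) turned above 0. *Pih1d2*, which has a PIH domain as do dynein arm assembly factors, stood at -0.36 ± 0.47, and *Sik2*, a kinase of CREB coactivators, at 0.25 ± 0.31 (-0.025 without homo replicate 3). None of these is larger than 2 standard errors. Single libraries moved them: *Ppp2r1b* ran from 0.25 without WT replicate 3 to 1.14 without WT replicate 2, *Pih1d2* from -0.70 without homo replicate 3 to -0.078 without WT replicate 2, and *Sdhd* from -0.62 without homo replicate 3 to -0.065 without WT replicate 1. *Alg9* ran from -0.63 (without homo replicate 2) to -0.26 (without WT replicate 3), *Dlat* from -0.51 (without homo replicate 1) to -0.25 (without WT replicate 2) and *Timm8b* from -0.49 to -0.15 (without homo replicates 2 and 3 in turn). *Sdhd* and *Timm8b* start side by side on opposite strands, and neither followed *Bco2* and *Il18*, the next genes of the list beyond them.

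Over all genes, 7 of 13938 passed the threshold of an adjusted p of 0.05 in homo against WT (0.0502%), and 18 did with the replicate number as a block (0.129%). The members' own results are not read against these shares, because values of this comparison chose the list. With 1 library left out, the log2 fold change of *Bco2* lay between -3.31 and -2.97 and that of *Il18* between -1.73 and -1.41. Of genes outside the list, *Hspa8*, which encodes the constitutive cytosolic chaperone Hsc70 and lies 9950 kb from *Cryab*, is named after its values were seen. It was at 149, 222 and 212 CPM in WT and at 73.9, 58.9 and 29.9 CPM in homo (log2 fold change -1.84 ± 0.29, edgeR adjusted p = 0.0074). Its het libraries, at 106, 137 and 170 CPM, overlapped WT. The 4 genes that passed in homo and were higher are not named here.

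Markers of other cell types were measured in the same libraries. The sum of 15 markers of pigment epithelium and melanocytes was 25.6 to 46.9 CPM in WT, 38.2 to 102 CPM in het and 43.4 to 88.8 CPM in homo, with overlap. Of its 14 tested genes, 1 passed edgeR in homo, 3 passed DESeq2 and 7 had an unadjusted p under 0.05, while in het the counts were 0, 5 and 8. The sum of 15 markers of inner retina and glia was 8.67 to 48.0 CPM in WT and 31.7 to 107 CPM in homo, with a median log2 fold change of 2.15. Of these 15 genes 0 passed edgeR or DESeq2 in homo and 5 had an unadjusted p under 0.05. With the replicate block in edgeR 1 of them passed in homo, and of the pigment genes 3 passed in homo and 2 in het. The erythrocyte sum was 15.6 to 146 CPM in WT, 134 to 451 CPM in het and 49.2 to 178 CPM in homo. Of its 5 tested genes 0 passed edgeR or DESeq2, and all 5 had an unadjusted p under 0.05 in het.

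The sum of 12 macrophage and microglia markers was 1.33 to 3.19 CPM in WT and 2.75 to 8.91 CPM in homo. None of the 12 genes passed edgeR or DESeq2, and 3 had an unadjusted p under 0.05. The lens epithelium sum (113 to 157 CPM in WT, 115 to 143 in homo) and the sum of vessel and mesenchyme markers (164 to 198 CPM in WT, 151 to 200 in homo) overlapped, with 0 genes past edgeR or DESeq2 and 0 of 7 and 2 of 11 at an unadjusted p under 0.05. The part of other cell types in the values of the 10 genes was not tested.

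The het against WT comparison of the *Cryab* line shares its WT libraries with the one that chose *Bco2*. Of the other 9 genes, 0 passed the edgeR test and 0 passed DESeq2, where 0.00717% of all genes passed edgeR. *Il18* was the 1 of 9 with an unadjusted p under 0.05, where 3.82% of all genes had one. *Ppp2r1b* stood at 0.57 ± 0.39, with WT libraries at 1.65, 2.40 and 0.668 CPM and het libraries at 2.52, 1.83 and 2.73 CPM that overlapped. Its value was 0.19 without WT replicate 3 and 1.1 without WT replicate 2. The log2 fold changes of *Dlat*, *Timm8b*, *Alg9* and *Sik2* lay between -0.060 and 0.081.

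The same genes in the line with an untargeted chromosome 9 give the comparison its scale. In *Cryaa*-R49C het lenses 0 of 10 passed edgeR or DESeq2 and 0 had an unadjusted p under 0.05 (0.00717% of all genes passed edgeR and 5.09% had such a p), with the lowest adjusted p at 0.836. *Bco2* was at 1.41, 3.28 and 0.876 CPM in *Cryaa*-WT and at 2.53, 3.10 and 2.32 CPM in het. These groups overlapped, and the log2 fold change was 0.51 ± 0.40, with 1.22 without WT replicate 2 and 0.17 without WT replicate 3.

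*Bco2* was low in *Cryaa*-R49C homo lenses as well, at 2 days and in the line targeted on chromosome 17. Whether both falls have the same cause was not tested. The homo libraries held 0.727, 0.346 and 0.190 CPM, all under the WT libraries given above, and the mean was 22.7% of WT, from 5 to 33 counts a library. The log2 fold change was -2.06 ± 0.45 (edgeR adjusted p = 0.00487, lower in 3 of 3 libraries). An exact permutation test over the 6 libraries gave p = 0.1, the smallest that 3 against 3 allow. Without *Cryaa*-WT replicate 2, the highest WT library, the log2 fold change was -1.35 and did not pass (edgeR adjusted p = 0.0799). It was the 1 of the 10 genes past the threshold, where 9.79% of all genes passed, so the count is near the background.

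*Il18* did not follow *Bco2* in that line. It was at 4.05, 3.07 and 2.87 CPM in *Cryaa*-WT and at 7.47, 4.71 and 4.56 CPM in homo, higher without overlap. Its log2 fold change of 0.75 ± 0.27 did not pass (edgeR adjusted p = 0.0806). With 1 library left out that value ran from 0.48 (without homo replicate 1) to 0.91 (without WT replicate 1). The counts of *Bco2* for every 100 of *Il18* were 34.7, 107 and 30.5 in *Cryaa*-WT, 75.6, 64.9 and 68.4 in het and 9.73, 7.33 and 4.17 in homo.

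**Figure D3:**
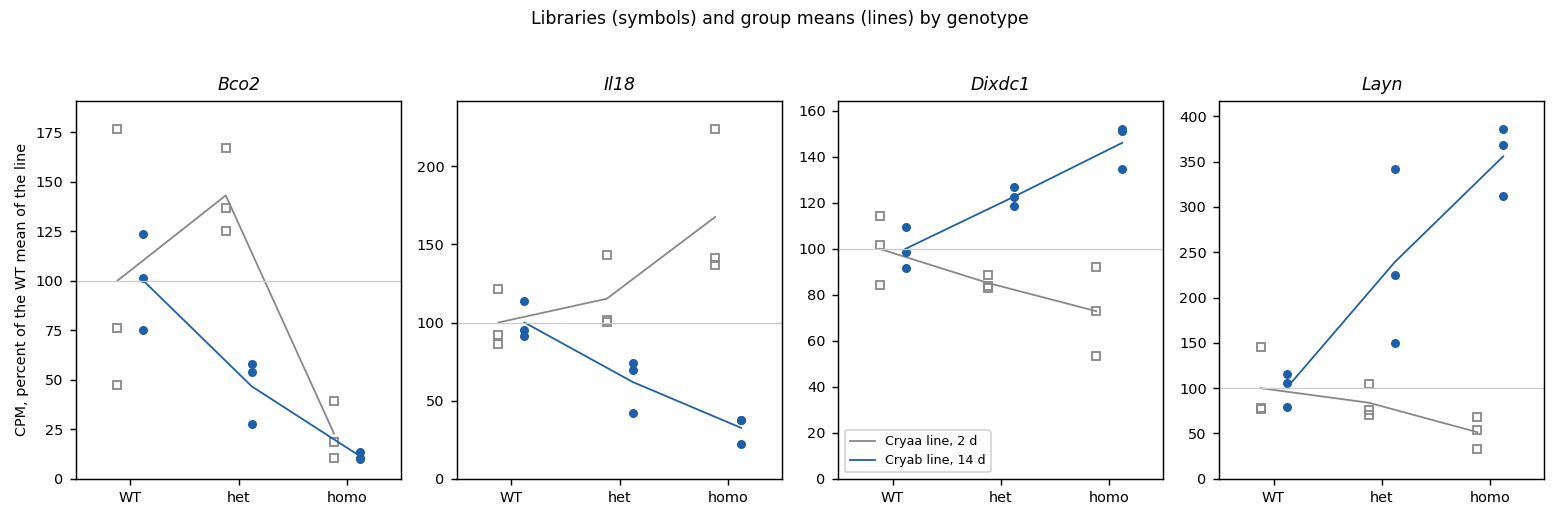
CPM as a percent of the WT mean of the same line (y axes from 0) for *Bco2*, *Il18*, *Dixdc1* and *Layn* in WT, het and homo libraries of the *Cryaa* line (open squares) and the *Cryab* line (filled circles), with lines through the group means. *Bco2* ends at 22.7% and 11.4% of WT in the homo groups of the lines, whereas *Il18* ends at 168% in the *Cryaa* line and 32.6% in the *Cryab* line.

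Several other neighbours differed by more than their standard error in *Cryaa*-R49C homo lenses without passing edgeR. *Alg9* was at 2.90, 3.01 and 2.17 CPM in WT and 4.47, 4.90 and 4.11 CPM in homo, higher without overlap (0.74 ± 0.25, edgeR adjusted p = 0.0642). It passed with DESeq2 (adjusted p = 0.0354), with library size alone in edgeR (adjusted p = 0.0057), with the replicate block in edgeR (adjusted p = 0.0482) and without homo replicate 1 in edgeR (adjusted p = 0.0492). *Sik2* was lower without overlap (-0.69 ± 0.29, edgeR adjusted p = 0.136). *Pih1d2* was at 1.09 ± 0.42, with 1 homo library at 4.27 CPM and the others at 1.70 and 1.33 CPM against a WT maximum of 1.38 CPM. Its value ran from 0.39 (without homo replicate 1) to 1.38 (without homo replicate 3). *Dixdc1* stood at -0.45 ± 0.21 in this line and at 0.0071 with library size alone. In all, 6 of 10 genes had an unadjusted p under 0.05, where 24.3% of all genes did, and 4 of 10 had groups without overlap, where 24.5% did.

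These homo lenses also differed in tissue markers. The lens fibre sum was 80038 to 203711 CPM in homo against 184087 to 279445 CPM in WT, and 7 of its 13 tested genes were past the edgeR threshold and lower (10 passed DESeq2). *Cryaa*, a marker of this list, was at 92956, 38261 and 31385 CPM in homo replicates 1, 2 and 3, so replicate 1 stood apart. The pigment epithelium and melanocyte sum was 51.7 to 81.2 CPM in WT and 32.1 to 42.8 CPM in homo, with 4 of 14 tested genes lower by edgeR (4 passed DESeq2), which moves with *Bco2* in this line and against it in the *Cryab* line. The inner retina and glia sum (50.2 to 122 CPM in WT, 39.0 to 61.1 in homo), the erythrocyte sum (36.9 to 57.9 and 41.6 to 150 CPM) and the vessel and mesenchyme sum (45.2 to 58.5 and 40.7 to 90.2 CPM) overlapped. Of the 11 vessel and mesenchyme genes 2 passed edgeR, 1 higher and 1 lower, 3 passed DESeq2 and 5 had an unadjusted p under 0.05. The lens epithelium sum was 155 to 184 CPM in WT and 144 to 160 CPM in homo. Of its 7 tested genes 2 passed edgeR, 1 higher and 1 lower, 2 passed DESeq2 and 4 had an unadjusted p under 0.05. The macrophage and microglia sum, led by *C1qb* and *Lyz2*, was 11.9 to 26.5 CPM in WT and 28.2 to 56.4 CPM in homo, with 2 of 12 genes past edgeR and higher, 6 past DESeq2 and 9 with an unadjusted p under 0.05, which moves with *Il18*. Their part in either value was not tested.

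Side by side, the homo effect in the *Cryab* line less that in the *Cryaa* line was -2.36 ± 0.39 for *Il18*, -1.17 ± 0.38 for *Alg9*, -1.09 ± 0.66 for *Bco2*, 1.0 ± 0.30 for *Dixdc1* and 0.94 ± 0.42 for *Sik2* on the log2 scale. *Pih1d2* had -1.44 ± 0.63, *Timm8b* -0.47 ± 0.32 and *Ppp2r1b* 0.31 ± 0.51. That of *Dlat* was -0.057 ± 0.32 and that of *Sdhd* 0.019 ± 0.41. These carry no test, since they contain the comparison that chose the list. Over all genes 2.91% passed the threshold in this difference, and the members are not read against that share. With 1 library left out the value of *Bco2* ran from -1.79 (without *Cryaa*-WT replicate 2) to -0.40 (without *Cryaa*-R49C homo replicate 1), and that of *Pih1d2* from -1.79 (without *Cryab*-R120G homo replicate 3) to -0.74 (without *Cryaa*-R49C homo replicate 1).

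Position alone gives a wider view of the locus. Of 35 annotated genes that start within 1 Mb of *Cryab*, 20 were tested, and 9 of them are neither *Cryab* nor 1 of the 10. In *Cryab*-R120G homo against WT, 0 of these 9 passed edgeR, 1 passed DESeq2, and 3 had an unadjusted p under 0.05 (33.3%, against 6.1% of all genes). These 3, which are named after their values were seen, were *Layn*, *2310030G06Rik* and *Pts*. The median log2 fold change of the 9 was -0.094, and that of all genes 0.00. Within 5 Mb the same count was 11 of 68 (16.2%), with 0 past edgeR. With all genes of at least 1 count in the fit it was 4 of 21 within 1 Mb (19.0%, against 5.96% of all genes), of which 1 passed edgeR. Around *Cryaa* on chromosome 17, the same window held 20 tested genes besides *Cryaa*, of which 0 passed edgeR in *Cryaa*-R49C homo against WT and 2 had an unadjusted p under 0.05 (10%, against 24.3% of all genes).

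*Layn* encodes layilin, a hyaluronan receptor, and starts 326 kb from *Cryab* beyond *Sik2*. It was at 1.32, 1.93 and 1.78 CPM in *Cryab*-WT, 2.52, 3.78 and 5.75 in het and 5.24, 6.49 and 6.19 in homo. Het and homo each lay above WT without overlap and overlapped each other. The log2 fold change was 1.81 ± 0.35 in homo (edgeR adjusted p = 0.0509, 0.0327 with the replicate block and 0.0017 with DESeq2) and 1.25 ± 0.35 in het (edgeR adjusted p = 0.856). In the *Cryaa* line *Layn* was lower in homo, at -0.94 ± 0.33 (edgeR adjusted p = 0.0724), with 2.04, 3.85 and 2.07 CPM in WT and 1.81, 1.41 and 0.875 in homo.

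*Pts*, an enzyme of tetrahydrobiopterin synthesis that starts 223 kb from *Cryab* beyond *Il18*, was at 18.1, 15.8 and 18.8 CPM in *Cryab*-WT, 13.8, 13.2 and 14.8 in het and 10.2, 14.4 and 11 in homo. Its homo and het libraries overlapped each other and lay under WT (homo -0.57 ± 0.20, edgeR adjusted p = 0.618). *2310030G06Rik*, 4.79 kb from *Cryab*, was at -0.99 ± 0.30 in homo (edgeR adjusted p = 0.532). *Hspb2*, the small heat shock protein gene that shares its start region with *Cryab*, was at 30.2, 22.6 and 24.6 CPM in WT and 24.1, 26.3 and 21.9 CPM in homo, a log2 fold change of -0.094 ± 0.22 (edgeR adjusted p = 0.985).

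**Figure D4:**
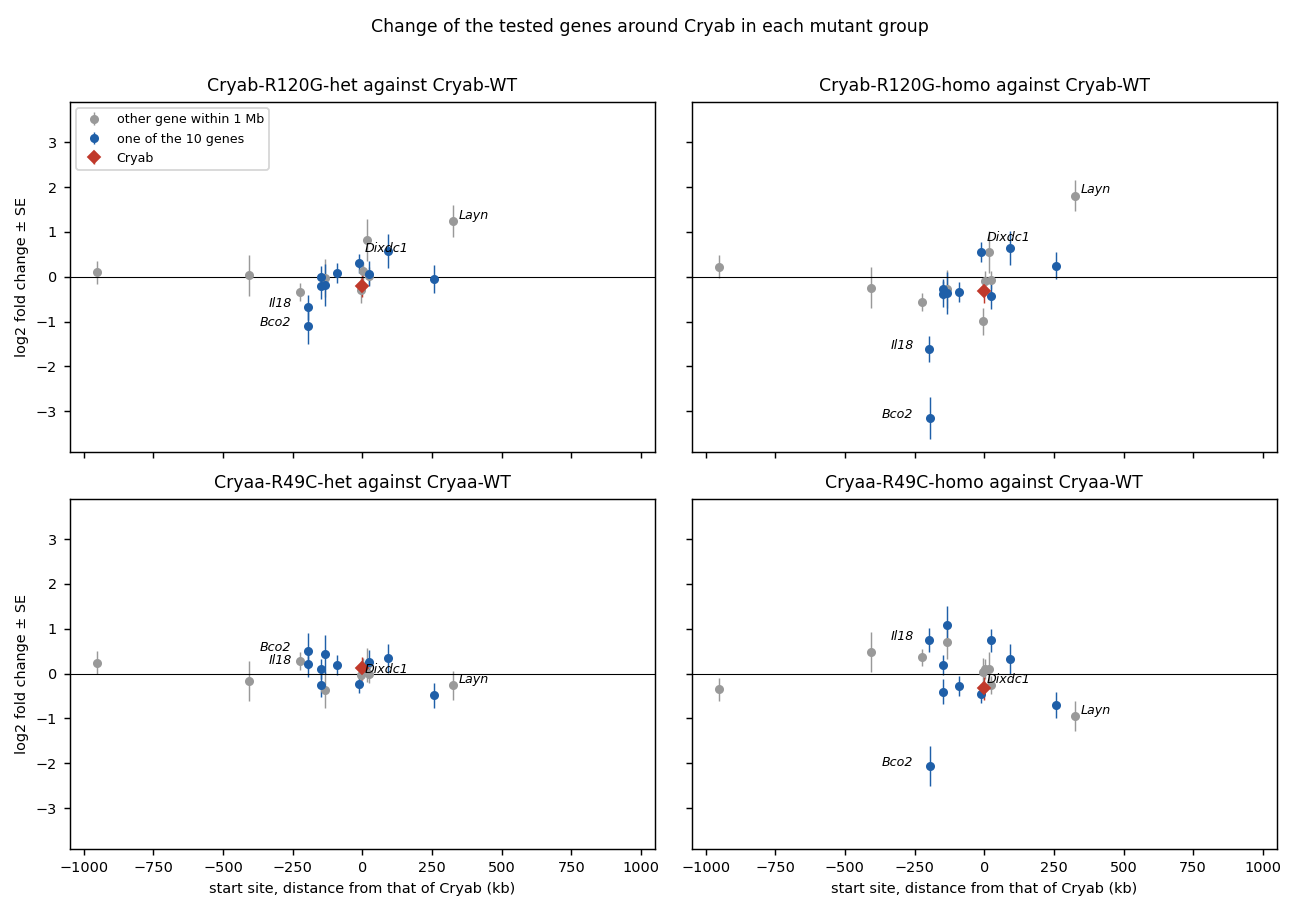
Log2 fold change with its SE (y axis) against the distance of the start site from that of *Cryab* in kb (x axis) for the 20 tested genes within 1 Mb, in the 4 mutant groups against their WT. *Bco2* at -3.15, *Il18* at -1.61 and *Layn* at 1.81 stand apart in the *Cryab*-R120G homo panel, and *Bco2* at -2.06 stands apart in the *Cryaa*-R49C homo panel.

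Between the WT groups, at 14 days of the *Cryab* line against 2 days of the *Cryaa* line, 2 of the 9 genes other than *Bco2* passed, both higher at 14 days, where 23.2% of all genes passed and 11.7% passed and were higher. *Bco2* stood at a log2 fold change of 1.73 ± 0.41, with the CPM of every 14-day library above every 2-day library, a description without a test because the 14-day WT libraries served to pick the gene. *Il18* was higher by 1.53 ± 0.28 (edgeR adjusted p = 0.00039) and *Timm8b* by 1.10 ± 0.23 (edgeR adjusted p = 0.00154), also without overlap. *Cryab* was higher by 2.49 ± 0.28 and *Hspb2* by 1.03 ± 0.22. These values depend on the scaling: with library size alone the median of all genes was -1.61, and *Il18* was at -0.0078, *Timm8b* at -0.43 and *Bco2* at 0.32, which places each of them above that median, and neither *Il18* nor *Timm8b* passed (edgeR adjusted p = 0.982 and 0.0931). Tissue markers differed between the WT groups as well. All 12 macrophage and microglia markers were lower at 14 days by edgeR, with a sum of 1.33 to 3.19 CPM against 11.9 to 26.5 CPM at 2 days. Of the lens fibre markers 10 of 13 tested were higher. Those lower numbered 7 of 14 for pigment epithelium and melanocytes, 6 of 11 for vessel and mesenchyme (1 was higher), 4 of 15 for inner retina and glia and 2 of 7 for lens epithelium. Of the 5 erythrocyte genes 0 passed edgeR. The part of these cells in the values of the 10 genes was not tested.

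The partners of the 10 genes gave little in the *Cryab* line. In 10 lists of genes that work with each member there were 129 partners, of which 112 were tested. In *Cryab*-R120G homo against WT, 0 of 112 passed edgeR or DESeq2 and 13 had an unadjusted p under 0.05 (11.6%, against 6.1% of all genes). In het against WT, 0 passed either tool and 6 had an unadjusted p under 0.05 (5.36%, against 3.82% of all genes). Among 17 tested genes of carotenoid and retinoid handling, the field of *Bco2*, the median log2 fold change was 0.68 in *Cryab*-R120G homo and 0.33 in het, and in the *Cryaa* line it was 0.37 in het and -0.13 in homo. That of all genes lay between -0.014 and 0.0047 in the 4 comparisons. In *Cryab*-R120G homo the medians of the pigment and of the inner retina markers were 1.78 and 2.15, and their part in this list was not tested. In *Cryaa*-R49C het lenses 0 passed either tool and 8 had an unadjusted p under 0.05 (7.14%, against 5.09% of all genes).

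In *Cryaa*-R49C homo lenses 15 of 112 partners passed, 7 higher and 8 lower (13.4%, against 9.79% of all genes). With library size alone 13 passed, 11 higher and 2 lower (11.6%, against 15.3% of all genes). Of the retinoid genes, *Rdh10*, a retinol dehydrogenase, went from 6.70 ± 2.05 to 2.39 ± 1.28 CPM (SD, n = 3, edgeR adjusted p = 0.0432) and *Aldh1a3*, which makes retinoic acid, from 2.20 ± 0.962 to 0.799 ± 0.477 CPM (edgeR adjusted p = 0.04). Of the mitochondrial lists, *Pdk1*, a kinase of pyruvate dehydrogenase, rose by 0.91 ± 0.20, the succinate dehydrogenase assembly factors *Sdhaf1* and *Sdhaf3* rose by 1.68 ± 0.37 and 1.13 ± 0.25, and the import chaperone *Timm10* rose by 1.14 ± 0.19. Of the phosphatase subunits *Ppp2r5b* rose by 0.97 ± 0.20 and *Ppp2r5e* fell by 1.39 ± 0.21. The kinase *Sik3* stood at -0.98 ± 0.26 and the Wnt scaffold *Axin2* at -1.27 ± 0.34 on the log2 scale, both past the threshold. The lower calls of *Rdh10*, *Aldh1a3*, *Sik3* and *Axin2* were lost with library size alone.

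Between the WT groups 18 of 112 partners passed, 9 higher and 9 lower (16.1%, against 23.2% of all genes). With library size alone 95 passed, 0 higher and 95 lower (84.8%, against 83.2% of all genes). The higher calls, *Mpc2* and *Sdhb* among them, thus depend on the scaling. *Stra6*, the retinol transporter, was at 0.964 ± 0.303 CPM at 14 days and 4.41 ± 0.681 CPM at 2 days. *Mpc2*, a subunit of the mitochondrial pyruvate carrier, was at 54.2 ± 3.03 CPM at 14 days and 27.1 ± 2.08 CPM at 2 days. *Sdhb*, the iron-sulfur subunit of succinate dehydrogenase, was at 174 ± 16.6 and 87.9 ± 13 CPM. *Dvl2*, a DIX domain partner of *Dixdc1* in Wnt signalling, was at 0.909 ± 0.212 and 1.97 ± 0.218 CPM.

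Across the 9 libraries of the *Cryab* line, the genes whose log2 CPM was most like that of *Bco2* were *Gm5121* (Pearson r = 0.94), *S100a6* (0.94), *Rlim* (0.93), *2310036O22Rik* (0.93) and *P3h4* (0.93). *Gm5121* lies on chromosome 9 and the others on chromosomes 3, X, 8 and 11. *Il18* ranked 8 of all genes (0.91), and *Dixdc1* had r = -0.92. The 9 points share 3 genotypes, so these coefficients describe the order of the groups and are given without a p.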

How the data were processed

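Lens RNA was prepared with a poly-A kit and sequenced as single reads of 50 bases. The authors aligned reads to GRCm38 (STAR 2.0.4b) and, for each gene, counted reads with 1 alignment and 1 possible gene (featureCounts 1.4.5), per the study's methods. The deposited count table holds whole read counts without normalization, and 1 line was kept for each of its 40800 Ensembl genes. The deposited RPKM values, counts divided by the authors by library size and gene length, served only to order genes within a group. Positions came from GENCODE vM21 (GRCm38), with 40254 genes matched by identifier.

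Counts were analysed with edgeR 4.0.16 in R 4.3.3 (TMM factors 0.488 to 2.27). The 13938 genes kept by filterByExpr entered 1 robust quasi-likelihood model of 6 groups over all 18 libraries, with Benjamini-Hochberg adjustment over all genes and a threshold of 0.05. A level is CPM after TMM scaling. SE is the log2 fold change over the root of the F statistic. The replicates are pools of lenses, and p-values measure the spread between pools. DESeq2 1.42.0 and other settings served as alternatives, and the fit was tested on simulated data. The members and the gene lists were chosen with earlier results of these data known. Genes were named by a rule: the 10 genes, *Cryab*, *Cryaa* and *Hspb2*, other genes within 1 Mb past the threshold in the *Cryab* line, at most 3 partners a list past it, the 5 genes most like *Bco2*, and the highest markers of a list. Exceptions are marked in the text, and 1 marker list is not reported here.

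Replicate numbers are shared between groups without a stated meaning. After removal of the group means, same-numbered *Cryab*-WT and *Cryab*-R120G homo libraries correlated with r = 0.277, 0.176 and 0.156. Those of *Cryaa*-WT and *Cryaa*-R49C homo correlated with r = 0.0436, 0.162 and 0.153. In both comparisons the same number gave the highest correlation, so the numbers may pair the libraries. The reported fit has no block, so its SEs and p-values ignore such pairing, and the block served as an alternative. No column was left without a sample.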

Additional observations from a re-analysis of the deposited data

Results flagged for a closer look

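*Il18* was singled out because its homo libraries lay apart from WT in opposite directions in the 2 lines. All 3 *Cryab*-R120G homo libraries were under all *Cryab*-WT libraries, and all 3 *Cryaa*-R49C homo libraries were above all *Cryaa*-WT libraries. The difference between the homo effects was -2.36 on the log2 scale, and it was not tested because it contains the comparison that chose the list.

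*Layn* stood out in the same way with the signs exchanged. Its homo effect was higher in the *Cryab* line by 2.75 ± 0.48 on the log2 scale (edgeR adjusted p = 0.00174 over all genes). It was looked at after its values were seen.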

How the results depend on the processing

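Of the values that answer a comparison, 96 under an alternative stayed within the limits set for them and 20 moved. The values that moved are these. The number of the 10 genes past the threshold in *Cryaa*-R49C homo against WT was 1, where 9.79% of all genes passed. It was 4 with library size alone, where 15.3% of all genes passed, 2 with DESeq2, 2 with the replicate block and 0 to 3 with 1 library left out. In *Cryab*-R120G homo against WT it was 2, and 1 with library size alone and 0 to 2 with 1 library left out, a description from which no stability is read, because values of this comparison chose the list. Between the WT groups it was 3, *Bco2* among them as a description only, all higher, where 23.2% of all genes passed. With library size alone it was 6, all lower, where 83.2% of all genes passed. These 6 were *Alg9*, *Dixdc1*, *Dlat*, *Ppp2r1b*, *Sdhd* and *Sik2*, while *Il18* and *Timm8b* no longer passed. In the difference between the lines, it was 1, and 2 with DESeq2 and 1 to 3 with 1 library left out, again a description with no test, since it contains that comparison. With library size alone the log2 fold changes of *Bco2* and *Il18* in *Cryab*-R120G homo were -2.79 and -1.22, while the median of all genes moved from 0.00 to 0.37. Of the partner genes, 1 in *Cryab*-R120G het and 2 in *Cryab*-R120G homo passed when all genes with at least 1 count were tested, and between the WT groups 95 passed with library size alone, all of them lower, against 18 of which 9 were lower. The cause was not tested, except that library size alone shifts all genes together.

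With library size alone the sign changed for *Dixdc1* (0.032) and *Sdhd* (0.0075) in *Cryaa*-R49C het, for *Dixdc1* (0.0071), *Dlat* (0.15) and *Sdhd* (0.074) in *Cryaa*-R49C homo, for *Sik2* (0.15) in *Cryab*-R120G het, for *Dlat* (0.051) and *Timm8b* (0.092) in *Cryab*-R120G homo, for *Sdhd* (-0.11, and -0.019 with all genes tested) in the difference between the lines, and between the WT groups for *Dixdc1* (-1.32), *Dlat* (-1.08), *Il18* (-0.0078), *Pih1d2* (-1.01), *Sdhd* (-1.27) and *Timm8b* (-0.43). With only the libraries of the line, *Timm8b* in *Cryab*-R120G het was -0.00086. Leaving out 1 library changed the sign of small values: *Timm8b* ran from -0.017 to 0.19 in *Cryaa*-R49C het and from -0.057 to 0.36 in *Cryaa*-R49C homo. In *Cryab*-R120G het *Alg9* ran from -0.10 to 0.24, *Dlat* from -0.029 to 0.17, *Pih1d2* from -0.48 to 0.087, *Sdhd* from -0.37 to 0.11, *Sik2* from -0.33 to 0.16 and *Timm8b* from -0.083 to 0.093. Between the WT groups *Alg9* ran from -0.20 to 0.13, *Sdhd* from -0.060 to 0.42 and *Sik2* from -0.46 to 0.024. In *Cryab*-R120G homo *Sik2* ran from -0.025 to 0.47, and in the difference between the lines *Dlat* ran from -0.23 to 0.17, *Ppp2r1b* from -0.073 to 0.82 and *Sdhd* from -0.22 to 0.48.

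Counts over all genes past the threshold moved further. *Cryab*-R120G homo had 7, and 20 with DESeq2, 302 with all genes tested, 18 with the replicate block and 1 to 13 with 1 library left out. *Cryab*-R120G het had 1, and 12 with DESeq2, 140 with all genes, 0 with only the line, 3 with the block and 0 to 3 with 1 library left out. *Cryaa*-R49C het had 1, and 2 with DESeq2, 17 with all genes, 0 with only the line and 0 to 2 with 1 library left out. *Cryaa*-R49C homo had 1364, and 2138 with library size alone and 731 to 3092 with 1 library left out. The WT groups had 3237, and 11596 and 1782 to 3172. The difference between the lines had 406, and 626 with DESeq2, 798 with all genes, 255 with library size alone, 209 with only the groups compared and 244 to 1800. In *Cryaa*-R49C homo the block in edgeR brought *Alg9* past the threshold (adjusted p = 0.0482), as DESeq2 (0.0354) and library size alone in edgeR (0.0057) did. *Sdhd* passed there without homo replicate 1 (-0.86), and *Il18* (1.22) and *Pih1d2* (1.56) passed with library size alone. The adjusted p of *Layn* in *Cryab*-R120G homo, an alternative chosen after seeing the data, lay between 8.39e-05 (all genes) and 0.327 (1 library left out). Low counts limit the homo values of *Bco2*, which rest on 33 counts a library or fewer.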
